A study of Mus musculus with 6 samples.

Results

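The proteasome genes were followed in mouse macrophages that had been given the cytokine IL4 with or without a further compound. A gene was included when its symbol was Psm followed by a letter from a to g and a number, pseudogene names left out, and when it reached 1 CPM (a count scaled to library size) in at least 1 library. All 50 genes that matched the symbol rule passed this level, out of 11898 genes compared and 16775 in the tables. They comprised 14 constitutive subunits of the core (7 of the alpha rings, 7 of the beta rings), 3 immunoproteasome subunits, 2 tissue-specific core subunits, 20 genes of the cap (6 ATPases, 11 other subunits and 3 assembly chaperones), 4 activators, 1 inhibitor and 4 assembly chaperones of the core. The remaining 2 matched by name only: Psmc3ip encodes a recombination factor, and Psme2b is a retrogene copy of Psme2.

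Bone marrow of C57BL/6 mice had been cultured for 5 days with 10 ng/ml M-CSF, which gives bone-marrow-derived macrophages, and RNA was taken 24 h after treatment. There were 6 libraries, 1 from cells given IL4 alone and 1 each from cells that received it together with fatostatin, with betulin, with 25-HC, with PF429424 or with 1,10-Phen. Here each library is called by its compound. Every library had therefore received IL4, no library without IL4 was part of the comparison, and the doses are not given in the sources used here. The title of the series concerns SREBP2, a transcription factor of cholesterol synthesis, and each compound library was compared with the IL4 library.

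The proteasome degrades proteins that carry ubiquitin chains. Its core is a barrel of stacked alpha and beta rings with the proteolytic sites inside, and the cap recognises, unfolds and feeds in the substrate. Cells of the immune system, macrophages among them, can replace the 3 catalytic beta subunits by the immunoproteasome subunits Psmb8, Psmb9 and Psmb10, which are known interferon-induced genes and shape the peptides presented on MHC class I.

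Library totals ran from 20181425 to 21169705 estimated counts, and the 50 genes together took between 0.362% (1,10-Phen) and 0.451% (betulin) of them. With 1 library per treatment there was no test between treatments, and the bracketed intervals are exact Clopper-Pearson 95% intervals of a ratio, which cover counting error only. A gene is called higher or lower here when its log2 ratio to the IL4 library was at least 0.5 in size, which is 1.41-fold, and its interval excluded 0. All 5 comparisons share the IL4 library, so that an error in it would enter each of them. All 8 macrophage markers were detected in every library, with a summed level of 7122 to 11337 CPM. Of these 8 markers 7 lay below the IL4 level with 25-HC (median log2 ratio -0.48, lowest Adgre1 at -1.26) and 7 with 1,10-Phen (median -0.46, lowest Mertk at -2.82 and Fcgr1 at -1.88), and 3, 6 and 4 with fatostatin, betulin and PF429424. T-cell markers summed to at most 3.32 CPM, B-cell markers to 4.98, NK-cell markers to 1.07 and the listed mast-cell markers to 0.820. Neutrophil-list genes summed to 457 to 913 CPM, stromal genes to 34.1 to 98.9 CPM and the dendritic list to 352 (1,10-Phen) to 1506 CPM (25-HC). Single genes carried much of these sums. Mmp8 held 527 of 811 CPM of the neutrophil list with IL4 and 832 of 913 with 1,10-Phen, but 96.7 of 457 with fatostatin. Itgax held 1060 of 1064 CPM of the dendritic list with IL4. In the neutrophil list 10 of 10 genes lay below the IL4 level with PF429424, where Retnlg had 0 counts, and 8 of 10 with 1,10-Phen. Of the dendritic list only Itgax, Zbtb46 and Xcr1 reached 1 CPM. The part of such cells in the results was not tested, and in such bulk samples fewer cells of a type and less RNA per cell cannot be told apart.

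The 3 immunoproteasome genes and Psmb5 are shown by the 250 bases upstream of their RefSeq starts (GRCm38.p6), since these genes differed in direction in the libraries described below. Psmb8 lies at chr17:34197945-34198194 on the plus strand, Psmb9 at chr17:34187331-34187580 on the minus strand, Psmb10 at chr8:105938393-105938642 on the minus strand and Psmb5 at chr14:54617996-54618245 on the minus strand. Capitals mark the motif matches named after the sequences.

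Psmb8: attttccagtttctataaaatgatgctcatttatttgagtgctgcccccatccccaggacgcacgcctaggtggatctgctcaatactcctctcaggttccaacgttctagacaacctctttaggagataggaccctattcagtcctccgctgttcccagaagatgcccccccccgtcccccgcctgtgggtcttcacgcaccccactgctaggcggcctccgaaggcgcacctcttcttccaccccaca
Psmb9: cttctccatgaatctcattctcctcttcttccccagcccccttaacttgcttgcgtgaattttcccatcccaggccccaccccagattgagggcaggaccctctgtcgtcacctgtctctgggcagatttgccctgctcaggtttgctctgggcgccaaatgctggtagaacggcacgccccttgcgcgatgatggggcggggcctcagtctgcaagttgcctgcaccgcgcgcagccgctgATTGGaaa
Psmb10: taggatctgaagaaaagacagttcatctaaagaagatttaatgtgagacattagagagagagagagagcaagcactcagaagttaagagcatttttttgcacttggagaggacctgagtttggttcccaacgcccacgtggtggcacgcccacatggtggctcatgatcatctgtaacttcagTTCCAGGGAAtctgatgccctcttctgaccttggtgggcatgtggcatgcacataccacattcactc
Psmb5: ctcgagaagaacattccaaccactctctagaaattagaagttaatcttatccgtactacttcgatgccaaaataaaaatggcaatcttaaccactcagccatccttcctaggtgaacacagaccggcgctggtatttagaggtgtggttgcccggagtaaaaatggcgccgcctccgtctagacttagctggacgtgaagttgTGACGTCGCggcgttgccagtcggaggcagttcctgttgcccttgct

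The motifs searched on both strands were an interferon-stimulated response element core (GAAANNGAAA), a STAT6-type site (TTCNNNNGAA), an antioxidant response element core (TGACNNNGC) and a CCAAT box (CCAAT). The Psmb8 window held none of these letters, and the Psmb10 window a STAT6-type TTCCAGGGAA 67 to 58 bases before the start. Psmb9 held only a CCAAT box on the opposite strand, read as ATTGG 8 to 4 bases before the start, and Psmb5 an antioxidant-type TGACGTCGC 47 to 39 bases before it. None of these matches overlapped another. Among 42 of the genes with a promoter entry, 5 held the antioxidant-type core (Psmb5, Psmb6, Psmc6, Psmd12 and Psmd9), against 10.2% of all 32851 promoter entries in the table. The CCAAT box was in 15 of 42 against 33.8%, the interferon-type core in 3 (Psmb3, Psmd4 and Psmd9) against 2.98% and the STAT6-type site in 1 (Psmb10) against 5.85%. The start used for Psmb6 lies inside the gene's RefSeq extent, so that its window is not wholly upstream of the gene. For 36 of the 42 genes the bases after the start were found in a transcript of the gene. A match describes letters in the window and is no evidence of binding.

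Psmb9 and Psmb8 are neighbours in the MHC class II region of chromosome 17, interleaved with the peptide transporter genes Tap1 and Tap2. Psmb9 (34182030 to 34187330) and Tap1 (34187556 to 34197225) are transcribed away from each other with 225 bases between them, which the Psmb9 window spans. Psmb8 (34198195 to 34201454) follows 969 bases after Tap1 and lies 3024 bases before Tap2. Psmb10 is on chromosome 8 and the genes of the subunits they replace, Psmb5, Psmb6 and Psmb7, are elsewhere.

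Per transcript length the core genes lay close together. FPKM, the count scaled by transcript length and library size, ranged in the IL4 library from 52.1 (Psma5) to 149 (Psmb6) over the 14 constitutive core genes, a ratio of 2.86 and a coefficient of variation of 24.2%. Averaged over the 6 libraries, the lowest core gene was Psma5 at 52.6 FPKM and the highest Psmb6 at 172. The 6 cap ATPases, which unfold the substrate, were closer still, from Psmc2 at 56.4 to Psmc1 at 85.4. Of the other cap subunits, 10 lay between Psmd12 at 46.6 and Psmd2, a scaffold of the cap base, at 95.8, and the lid subunit Psmd8 stood above them at 179. Within the cap the lowest mean was that of the assembly chaperone Psmd9, at 8.77 FPKM.

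The listed assembly chaperones and the inhibitor Psmf1 had lower mean FPKM than the constitutive core and the other cap genes. Pomp, the maturation factor of the core, is outside the symbol rule and was not low, at 171 FPKM with IL4. The cap chaperones Psmd5, Psmd10 and Psmd9 averaged 24.9, 14.2 and 8.77 FPKM. The core chaperones Psmg1 to Psmg4 averaged 13.5, 13.4, 11.4 and 16.9 FPKM, and Psmf1, an inhibitor of the core, 9.62. The interferon-linked activator subunits Psme1 and Psme2, which form a ring on the end of the core, averaged 86.5 and 87.6 FPKM, the nuclear activator Psme3 54.9 and the single-chain activator Psme4 24.8. Psma8, known from testis, and Psmb11, known from the thymus cortex, were near the bottom with 1.21 and 0.245 FPKM.

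**Figure D1:**
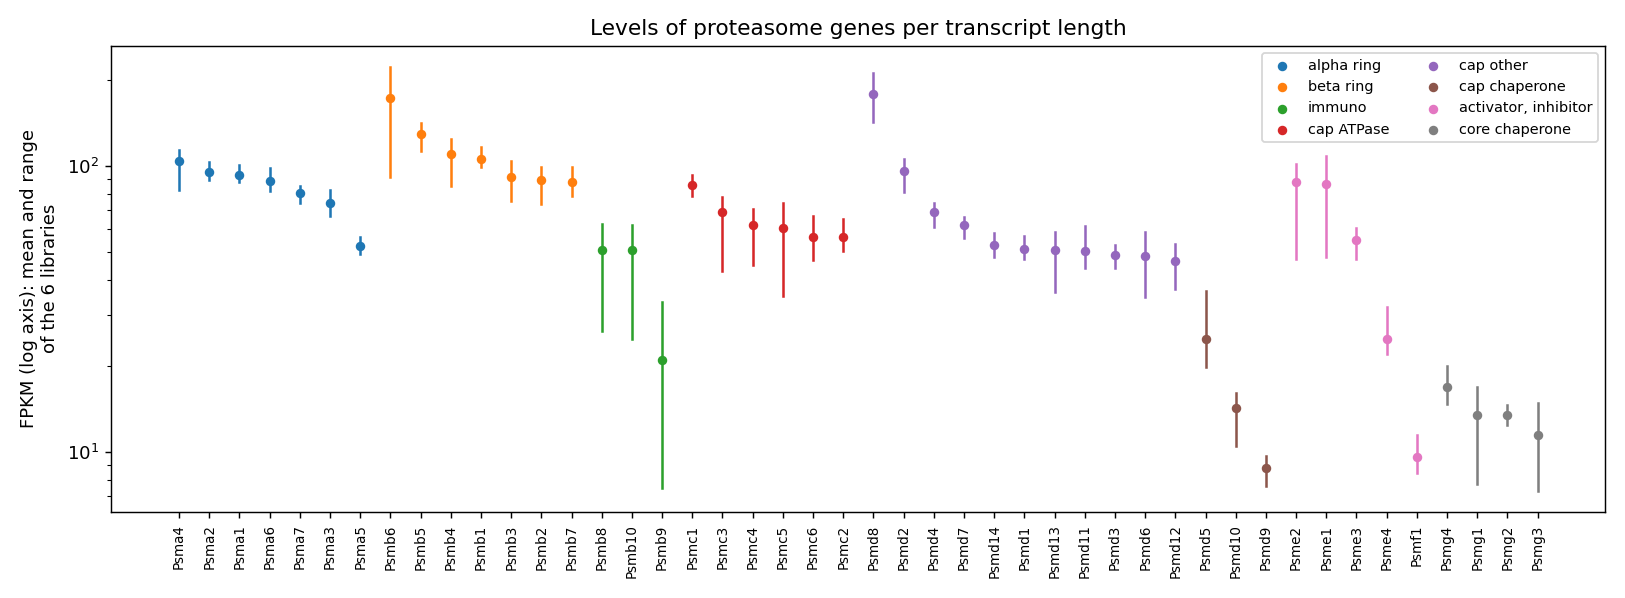
FPKM per gene on a log axis for 46 genes ordered by role, without Psma8, Psmb11, Psmc3ip and Psme2b. Each point is the mean of the 6 libraries and each bar runs from the lowest to the highest library. Psmb6 (172) and Psmd8 (179) had the highest means, and among the plotted genes the bar of Psmb9 (7.45 to 33.5 FPKM) is the longest.

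The core and cap genes as a group were slightly higher than in the IL4 library with betulin, 25-HC and PF429424, by a median near 0.2 on the log2 scale. Of the 34 genes of the constitutive core and the cap, 34 lay above the IL4 level with betulin, 29 with 25-HC and 34 with PF429424. Over all genes compared, 50.8%, 50.7% and 52.3% lay above it. The median log2 ratio of the 34 genes was 0.22 with betulin (0.17 to 0.27 as an order-statistic interval over the genes), 0.23 with 25-HC (0.12 to 0.31) and 0.24 with PF429424 (0.15 to 0.27). The medians of all genes compared were 0.01, 0.01 and 0.02. Scaled to library totals, 32, 27 and 24 of the 34 genes lay above 0. These 3 comparisons use the same IL4 library, which held the lowest CPM of the 6 libraries for 13 of the 34 genes and the highest for 0 of them, against 17.7% and 17.3% of all genes.

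Few single genes passed the size rule. With betulin 3 of the 50 were called higher and 0 lower, against 6.45% and 7.82% of all genes. With 25-HC 3 were called higher and 3 lower, against 11.7% and 14.6%. With PF429424 2 were called higher and 1 lower, against 9.99% and 13.2%. The members called higher were Psmb6 and Psmd8 with betulin and 25-HC, Psmd8 with PF429424, Psmg3 with betulin and PF429424, and Psmc6 with 25-HC. Scaled to library totals, Psmc6 with 25-HC (0.47) and Psmg3 with PF429424 (0.43) were not called, and with DESeq2 size factors Psmc6 was just under the size rule. The counts are thus at or below the share of all genes, and the 34 core and cap genes were displaced by small amounts with little spread. The SD of their log2 ratios was 0.13, 0.18 and 0.15, and over all genes it was 0.48, 0.66 and 0.61. All genes include those near 1 CPM with larger counting error, so these sets were not matched for level.

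With fatostatin the core and cap stayed near the IL4 level. The median log2 ratio of the 34 genes was 0.03 with 20 above 0, and scaled to library totals alone it was -0.03 with 12 above 0. Of the 50 genes 0 were called higher and 0 lower, against 3.40% and 3.65% of all genes. Among genes with at least 50 counts the 4 highest ratios were those of Psmb6 (0.28), Psmg3 (0.27), Psmd8 (0.22) and Psmb5 (0.17), and the 4 lowest were Psme2b (-0.48), Psma8 (-0.41, on 39 against 53 counts), Psmb9 (-0.27) and Psmb3 (-0.18).

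Psmd8, a subunit of the cap's lid, reached 202 CPM with IL4, 234 with fatostatin, 309 with betulin, 301 with 25-HC, 328 with PF429424 and 237 with 1,10-Phen. The IL4 library was the lowest of the 6. Its log2 ratio was 0.61 with betulin (0.56 to 0.67), 0.58 with 25-HC (0.52 to 0.63) and 0.70 with PF429424 (0.65 to 0.76). Psmc6, an ATPase of the cap, stood at 70.0, 71.2, 94.8, 99.8, 96.3 and 96.6 CPM in the same order. Its IL4 and fatostatin libraries were alike and the other 4 were higher. Psmd14, the cap's deubiquitinase, which removes the ubiquitin chain before the substrate enters, showed 69.0, 72.0, 86.7, 86.0, 87.4 and 84.5 CPM. As with Psmc6, the IL4 and fatostatin values lay below the other 4.

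The 3 constitutive catalytic subunits had the highest log2 ratios of the constitutive core genes with betulin, 25-HC and PF429424. They were not all high in level, since Psmb7 had the lowest mean FPKM of the constitutive beta ring, at 87.9. Psmb6, which carries the caspase-like activity, stood at 142 CPM with IL4, 173 with fatostatin, 221 with betulin, 207 with 25-HC, 198 with PF429424 and 103 with 1,10-Phen. It was lowest with 1,10-Phen and highest with betulin, a 2.14-fold range. Its log2 ratio was 0.64 with betulin (0.57 to 0.70), 0.54 with 25-HC (0.47 to 0.61) and -0.46 with 1,10-Phen. Psmb5, the chymotrypsin-like subunit, stood at 89.9, 101, 110, 116, 123 and 121 CPM in the same order, and Psmb7, the trypsin-like subunit, at 68.7, 70.8, 86.1, 87.2, 90.5 and 78.5 CPM. For both, IL4 alone was the lowest library. Neither passed the size rule in any comparison, the highest log2 ratios being 0.45 for Psmb5 and 0.40 for Psmb7, both with PF429424.

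The alpha ring genes, which gate the barrel, differed less. Their median log2 ratio was 0.20 with betulin, 0.05 with 25-HC and 0.21 with PF429424, and no alpha gene was called. Psma1 was the flattest of the core genes, at 117, 109, 120, 105, 117 and 124 CPM in library order, a 1.18-fold range. With 25-HC 5 of 7 alpha genes and 4 of 7 beta genes lay above the IL4 level, but all 20 cap genes did. The lowest of these 20 was Psmc3 at 0.004, and 19 lay above 0 with library totals or DESeq2 size factors. With 25-HC the median of the cap was 0.25 (0.17 to 0.32) and that of the constitutive core 0.11 (-0.05 to 0.34). Those intervals overlap, but they describe the spread over genes within the same libraries. With 1 library per treatment they cannot decide whether cap and core respond differently to 25-HC.

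**Figure D2:**
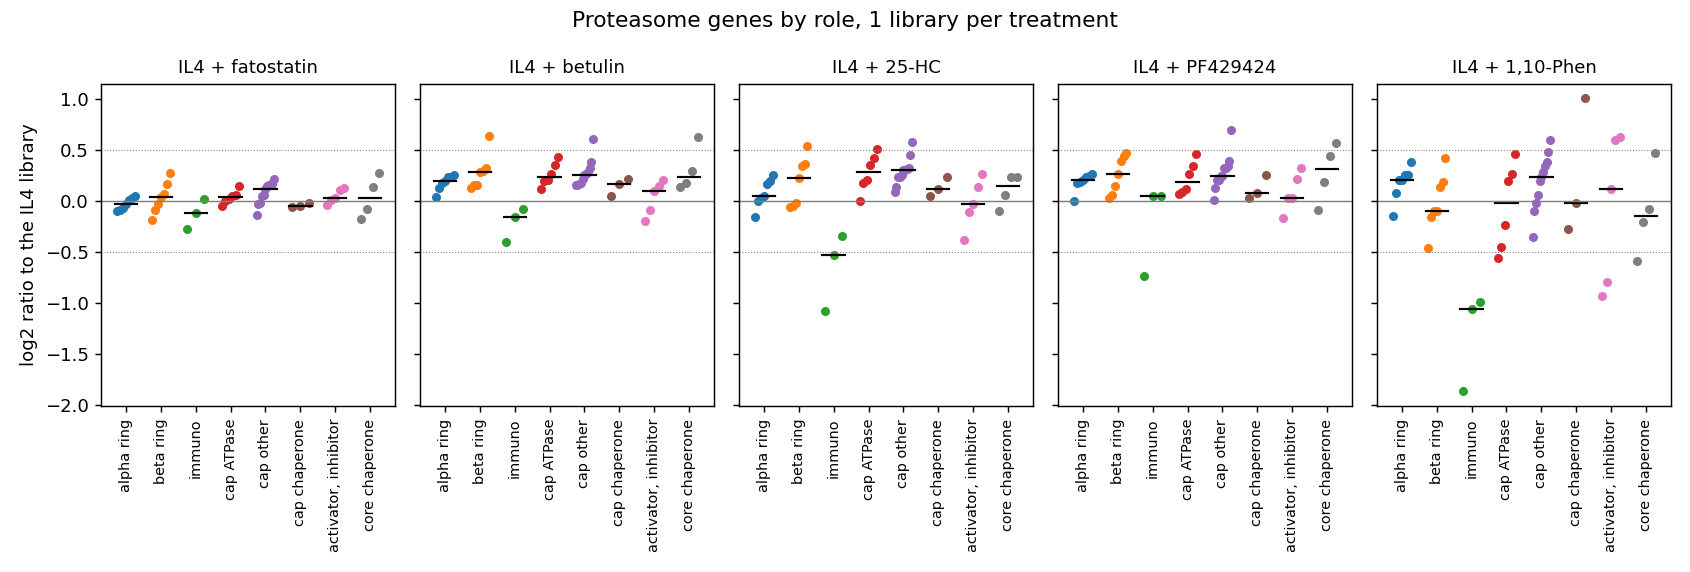
Log2 ratio to the IL4 library for 46 genes grouped by role, 1 panel per compound; black lines are group medians, and dotted lines mark log2 ratios of 0.5 and -0.5. Core and cap genes sit just above 0 with betulin, 25-HC and PF429424, near 0 with fatostatin and spread wider with 1,10-Phen. The median of the 3 immunoproteasome genes is lower with 25-HC (-0.53) and 1,10-Phen (-1.06) than with the other compounds.

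The immunoproteasome genes went the other way. Psmb9 was lower than with IL4 alone in each of the 5 compound libraries, and Psmb8 and Psmb10 were lower with 25-HC and 1,10-Phen. Psmb9, which takes the place of Psmb6, had 25.1 CPM with IL4, 20.8 with fatostatin, 19.0 with betulin, 11.8 with 25-HC, 15 with PF429424 and 6.80 with 1,10-Phen. The IL4 library was the highest and the 1,10-Phen library the lowest, a 3.69-fold range, the widest among the genes of the particle. Its log2 ratio was -1.08 with 25-HC (-1.30 to -0.87, on 260 against 539 counts), -0.74 with PF429424 (-0.95 to -0.54) and -1.87 with 1,10-Phen (-2.17 to -1.60, on 127 counts). With fatostatin and betulin it was -0.27 and -0.40, below the size rule.

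Psmb10, which takes the place of Psmb7, had 74.5, 75.7, 70.7, 51.5, 77.2 and 35.8 CPM with IL4, fatostatin, betulin, 25-HC, PF429424 and 1,10-Phen. Psmb8, which takes the place of Psmb5, had 71.1, 65.3, 63.6, 55.9, 73.6 and 35.6 CPM in that order. Both were near the IL4 level with PF429424, where Psmb9 was called lower, and both were near 50% of it with 1,10-Phen. With 25-HC Psmb10 was called lower at -0.53 (-0.64 to -0.42), while Psmb8 at -0.35 (-0.46 to -0.24) was not. With 1,10-Phen the log2 ratios were -1.06 for Psmb10 (-1.19 to -0.93) and -0.99 for Psmb8 (-1.13 to -0.86).

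The share of the immunoproteasome in the catalytic transcripts was highest with IL4 alone. Psmb8, Psmb9 and Psmb10 made up 31.7% of the summed FPKM of the 6 catalytic genes in that library, 27.6% with fatostatin, 23.0% with betulin, 24.3% with PF429424, 18.9% with 25-HC and 16.4% with 1,10-Phen. In FPKM, Psmb10 stood at 0.789 of Psmb7 with IL4 and at 0.313 with 1,10-Phen, Psmb8 at 0.556 and 0.208 of Psmb5, and Psmb9 at 0.225 and 0.0815 of Psmb6. For Psmb9 the lowest ratio was not with 1,10-Phen but with 25-HC, at 0.0723, where Psmb6 was at 211 FPKM against 91.4 with 1,10-Phen. A share of FPKM within 1 library does not depend on the scaling between libraries. It depends on both sums, and the constitutive sum differed too. Psmb8, Psmb9 and Psmb10 summed to 158, 143, 134, 105, 136 and 58.7 FPKM in library order. Psmb5, Psmb6 and Psmb7 summed to 341, 374, 450, 452, 424 and 298 FPKM. In the libraries where the immunoproteasome genes were lowest, 7 of 8 macrophage markers also lay below the IL4 level. Of the dendritic list, Itgax, Zbtb46 and Xcr1 had log2 ratios of 0.50, -0.06 and 0.20 with 25-HC and of -1.60, -1.53 and 0.34 with 1,10-Phen. The part of these markers in the result was not tested. These are transcript shares, and the proportion of assembled immunoproteasome was not measured.

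**Figure D3:**
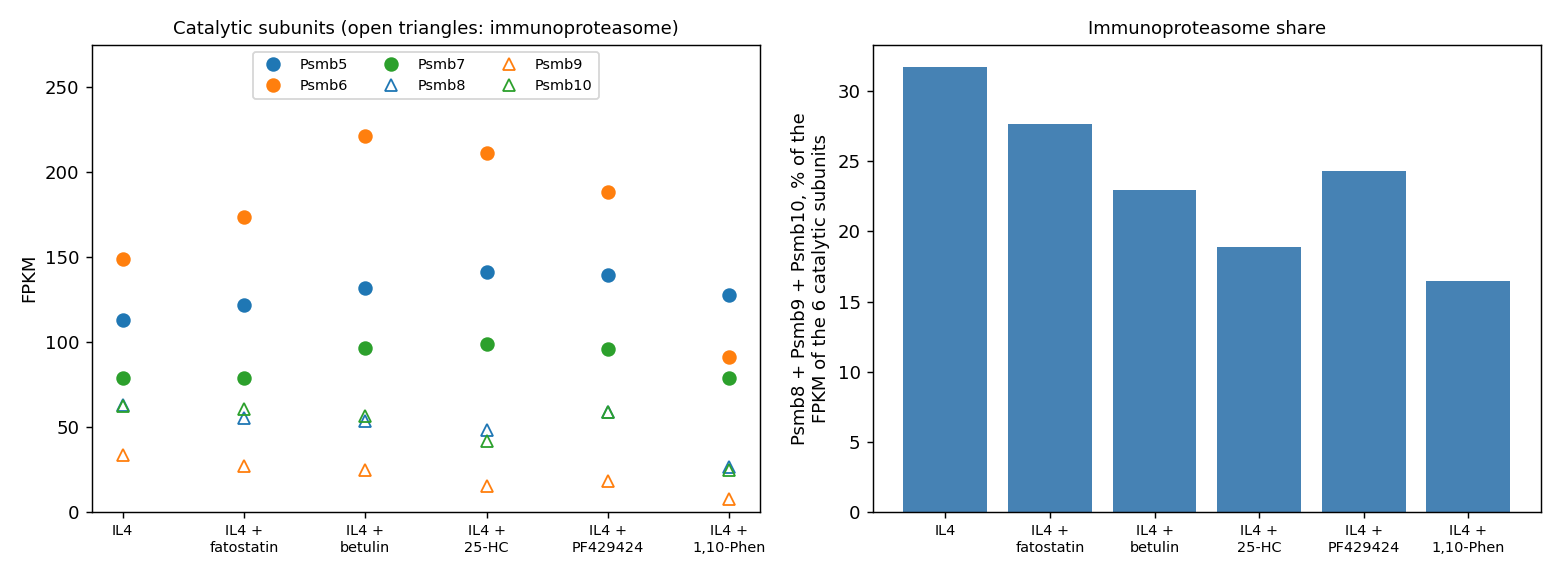
Left, FPKM of the 3 constitutive catalytic genes (filled circles) and the 3 immunoproteasome genes (open triangles) in each library, with the same colour for the genes that replace each other. Right, share of the immunoproteasome genes in the summed FPKM of all 6, which was 31.7% with IL4 and 16.4% with 1,10-Phen; there is 1 library per bar and no error bar.

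Genes that share the interferon and class I loading pathway with the immunoproteasome were also mostly lower with 25-HC and 1,10-Phen. Of 14 such genes 13 lay below the IL4 level with betulin, 13 with 25-HC, 9 with PF429424, 12 with 1,10-Phen and 5 with fatostatin. The list medians were -0.26, -0.41, -0.12, -0.49 and 0.04 in that order. With 25-HC 4 of the 14 were called lower and with 1,10-Phen 7, and 0 were called higher in either, against 14.6% and 22.8% lower among all genes. Irf1, a transcription factor that induces Psmb9 and Tap1, had 98.7, 70.7, 56.9, 27.3, 43.7 and 38.6 CPM in library order, and IL4 alone was the highest. Its log2 ratio was -1.85 with 25-HC (-1.99 to -1.72), -1.18 with PF429424 (-1.29 to -1.06) and -1.35 with 1,10-Phen (-1.48 to -1.23). No other gene of the list reached a log2 ratio of -1 in any comparison.

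The transporter genes beside Psmb8 and Psmb9 were lower with 1,10-Phen in particular. Tap1 had 49.8, 51.8, 38.9, 37.5, 50.7 and 25.5 CPM and Tap2 50.5, 52.0, 47.2, 44.6, 54.1 and 28.4 CPM in library order. Their log2 ratios with 1,10-Phen were -0.96 (-1.13 to -0.81) and -0.83 (-0.98 to -0.68). With PF429424 they were 0.02 and 0.10, near those of Psmb8 and Psmb10 (0.05 each) and unlike that of Psmb9. Nlrc5, the class I transactivator, was at -0.42 with 25-HC and -0.24 with 1,10-Phen. The class I genes B2m and H2-D1 were the exceptions with 1,10-Phen, at 0.46 and 0.41.

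The activators split in the same libraries. Psme1 had 97.1 CPM with IL4, 97.6 with fatostatin, 84.8 with betulin, 74.7 with 25-HC, 86.6 with PF429424 and 50.9 with 1,10-Phen. Psme2 had 80.5, 86.6, 86.1, 74.7, 82.2 and 46.3 CPM in that order. The 1,10-Phen library was the lowest for both, with log2 ratios of -0.93 for Psme1 (-1.04 to -0.82) and -0.80 for Psme2 (-0.92 to -0.68). Psme2 and its copy Psme2b have estimated counts that are not whole in any library, which marks reads shared with similar sequences, so that their division is uncertain. The sequences that shared those reads were not identified here.

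Psme3 and Psme4, which are not interferon-linked, did not go that way. Psme3, the activator of the nucleus, had 127, 139, 147, 154, 160 and 139 CPM in library order, and IL4 alone was the lowest. Psme4, a large activator, had 150, 153, 141, 147, 153 and 233 CPM, with 5 libraries alike and 1,10-Phen above them. Its log2 ratio with 1,10-Phen was 0.63 (0.57 to 0.70). The summed FPKM of Psme1 and Psme2 was 3.98 times that of Psme3 with IL4, 3.81 with fatostatin, 3.33 with betulin, 2.79 with 25-HC, 3.03 with PF429424 and 2.01 with 1,10-Phen.

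With 1,10-Phen, of the 50 genes 4 were called higher and 10 lower, against 18.1% and 22.8% of all genes, and at 2-fold 1 was higher and 4 were lower, against 7.59% and 11.8%. Besides the 3 immunoproteasome genes, Psme1 and Psme2, the genes called lower were the cap ATPase Psmc3, the core chaperone Psmg1, the low-count genes Psma8 and Psmc3ip, and Psme2b. Those called higher were Psmd5, Psme4, Psmd11 and Psmf1. The library held the lowest of the 6 values for 22 of the 50 genes and the highest for 14, against 34.4% and 30.4% of all genes.

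Within the core and cap the 1,10-Phen ratios were uneven. Their SD was 0.33 over the 34 genes, against 0.11 to 0.18 in the other comparisons. Over all genes, not matched for level, the SD was also larger, at 1.05 against 0.36 to 0.66. The median was 0.17 for the constitutive core and 0.20 for the cap, but -0.07 and -0.04 when scaled to library totals, where the median of all genes moved to -0.25. Relative to the median of all genes, the core was at 0.18 and the cap at 0.21 under either scaling. Of the 34 genes 21 lay above 0, and 12 when scaled to library totals.

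The ATPases of the cap lay on both sides of the IL4 level. Psmc6, Psmc2 and Psmc1 were above the IL4 level with 1,10-Phen, at 0.46, 0.27 and 0.20, and Psmc4, Psmc5 and Psmc3 below it, at -0.24, -0.45 and -0.56. Psmc5 had 67.5 CPM with IL4, 74.8 with fatostatin, 86.5 with betulin, 90.3 with 25-HC, 85.7 with PF429424 and 49.3 with 1,10-Phen, so that it was lowest where Psmc6 was high. Psmc3 had 114, 118, 124, 114, 121 and 77.4 CPM, level in 5 libraries and lower in the sixth, with a log2 ratio of -0.56 (-0.66 to -0.47). The coefficient of variation of FPKM among the 6 ATPases was 31.4% with 1,10-Phen and 13.2% to 22.2% in the other libraries. Scaled to library totals, Psmc2 and Psmc1 were at 0.03 and -0.04.

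Psmd5, a chaperone that holds ATPases during cap assembly, was the only gene of the 50 called 2-fold higher. It had 40.9 CPM with IL4, 39.3 with fatostatin, 47.5 with betulin, 48.4 with 25-HC, 49.0 with PF429424 and 82.5 with 1,10-Phen, with 1541 against 879 counts behind the last comparison. The 1,10-Phen library was above all the others, and the log2 ratio was 1.01 (0.89 to 1.13), or 0.77 scaled to library totals. The other cap chaperones did not share it. Psmd10 was at -0.28, and Psmd9 at -0.02 with 22.0 to 24.3 CPM in the 6 libraries, the narrowest range of all members.

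Among the lid subunits, Psmd11, which braces the lid against the core, had 91.7, 90.3, 102, 108, 99.9 and 139 CPM in library order and a log2 ratio of 0.60 (0.52 to 0.69) with 1,10-Phen. Psmd13 was at -0.35 and Psmd6 at -0.10 in that library. The ubiquitin receptor Psmd4 had 75.7, 84.3, 92.6, 94.5, 94.6 and 106 CPM, lowest with IL4 and highest with 1,10-Phen. The inhibitor Psmf1 had 26.2, 25.5, 29.1, 29.0, 30.5 and 39.8 CPM and a ratio of 0.60 (0.44 to 0.76). Scaled to library totals, Psmd11, Psmf1 and Psme4 stayed above the IL4 level at 0.36, 0.36 and 0.39 but were no longer called, which left Psmd5 as the 1 gene called higher. The same scaling called 14 genes lower in place of 10, adding Psmb6 (-0.70), Psmc5 (-0.69), Psmd13 (-0.59) and Psmd10 (-0.52). Of all 11898 genes it called 1344 higher and 3964 lower, with the median of all genes at -0.25.

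**Figure D4:**
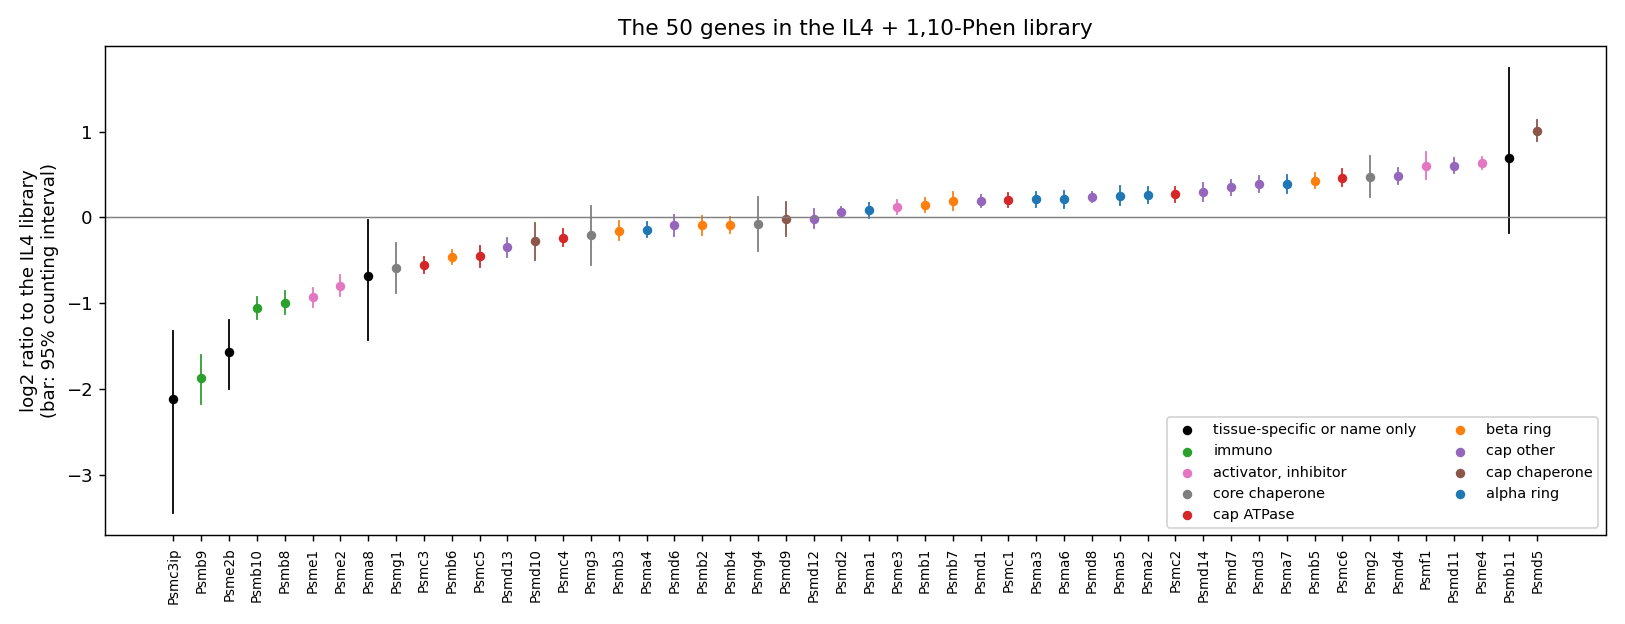
Log2 ratio of the IL4 + 1,10-Phen library to the IL4 library for all 50 genes in order of size, coloured by role, with bars for the 95% counting interval. The immunoproteasome genes and the activators Psme1 and Psme2 lie at the low end, Psmd5 (1.01) at the high end, and the cap ATPases are spread from -0.56 to 0.46.

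The chaperones that build the core were low-count genes with wide intervals. Psmg1 had 12.4 CPM with IL4, 11.8 with fatostatin, 15.3 with betulin, 13 with 25-HC, 16.9 with PF429424 and 8.25 with 1,10-Phen, lowest in the last library with a log2 ratio of -0.59 (-0.89 to -0.30). Its partner Psmg2 had 12.2, 13.4, 13.4, 14.3, 13.8 and 16.9 CPM and was highest there, at 0.47. The 2 partners thus lay on opposite sides of the IL4 level with 1,10-Phen, on 154 and 316 counts. Psmg3 had 7.68, 9.32, 12, 9.06, 11.4 and 6.64 CPM, with a log2 ratio of 0.63 with betulin (0.35 to 0.93) and 0.57 with PF429424 (0.28 to 0.87). Its partner Psmg4 had 8.90, 7.86, 10.1, 8.29, 8.37 and 8.41 CPM and was called in no comparison. Pomp, the maturation factor of the core, had 114, 107, 116, 96.7, 131 and 121 CPM and was called in none.

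The lowest genes of the list carry little information at this depth. Psma8 had 53 counts with IL4 and 28 with 1,10-Phen, with an interval of the log2 ratio from -1.43 to -0.03. Psmb11 had between 0.792 and 1.34 CPM. Psmc3ip, which has no part in the proteasome, had 57 counts with IL4 and 10 with 1,10-Phen, at -2.12 (-3.44 to -1.33). Psme2b had 232 and 67 counts in those libraries, at -1.57 (-2.0 to -1.19). Without Psmc3ip and Psme2b the number called lower with 1,10-Phen was 8 in place of 10.

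Factors that act with the particle were mostly above the IL4 level too. Of 12 proteasome partners 11 lay above 0 with betulin, 10 with 25-HC, 11 with PF429424, 11 with 1,10-Phen and 9 with fatostatin, with medians of 0.17, 0.28, 0.26, 0.26 and 0.03. Over all genes compared, 50.8%, 50.7%, 52.3%, 49.0% and 52.0% lay above 0 in that order. These counts used TMM scaling and were not repeated with library totals, which set the median of all genes with 1,10-Phen at -0.25. In that library Fbxo7 and Usp14 lay above 0 by only 0.0017 and 0.0026. The ubiquitin receptor Adrm1 had 72.9, 78.5, 93.1, 101, 99.7 and 102 CPM in library order, with IL4 the lowest. The deubiquitinase Uchl5, which binds Adrm1, had 29.9, 32.8, 42.0, 46.0, 38.1 and 15.6 CPM, highest with 25-HC and lowest with 1,10-Phen, where its log2 ratio was -0.93 (-1.14 to -0.74). The deubiquitinase Usp14 ranged only from 103 to 125 CPM, and the small lid subunit Sem1 from 57.5 to 87.7 CPM. Ecpas, which tethers core and cap, had 126, 127, 132, 149, 157 and 358 CPM and was the only partner at 2-fold, with a log2 ratio of 1.5 (1.44 to 1.56) with 1,10-Phen.

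NFE2L1 is the transcription factor known to raise proteasome genes when proteasome activity is short, after processing by the protease DDI2. Nfe2l1 had 154 CPM with IL4, 168 with fatostatin, 163 with betulin, 217 with 25-HC, 235 with PF429424 and 301 with 1,10-Phen. The IL4 library was lowest and the 1,10-Phen library highest, with log2 ratios of 0.49 with 25-HC (0.43 to 0.56), 0.61 with PF429424 (0.55 to 0.68) and 0.97 with 1,10-Phen (0.91 to 1.03). With betulin, where the core and cap median was 0.22, Nfe2l1 was at 0.08. Ddi2 had 95, 84.2, 88.6, 103, 95.9 and 138 CPM and was called higher with 1,10-Phen, at 0.54. The related factor Nfe2l2 had 301, 269, 300, 264, 259 and 225 CPM, highest with IL4. Of the 10 genes listed around NFE2L1, 5 were called higher and 0 lower with 1,10-Phen, against 18.1% and 22.8% of all genes, with a median of 0.51. Its DNA-binding partners Maff (2.63) and Mafg (1.37) were the 2 past 2-fold. Of 12 target genes of the related factor NRF2, such as Hmox1 and Gclm, 11 were called higher and 0 lower in that library, with a median of 2.02. In the other 4 comparisons the medians of the NRF2 targets lay between -0.25 and -0.03. Whether Nfe2l1 bears on the proteasome genes was not tested.

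**Figure D5:**
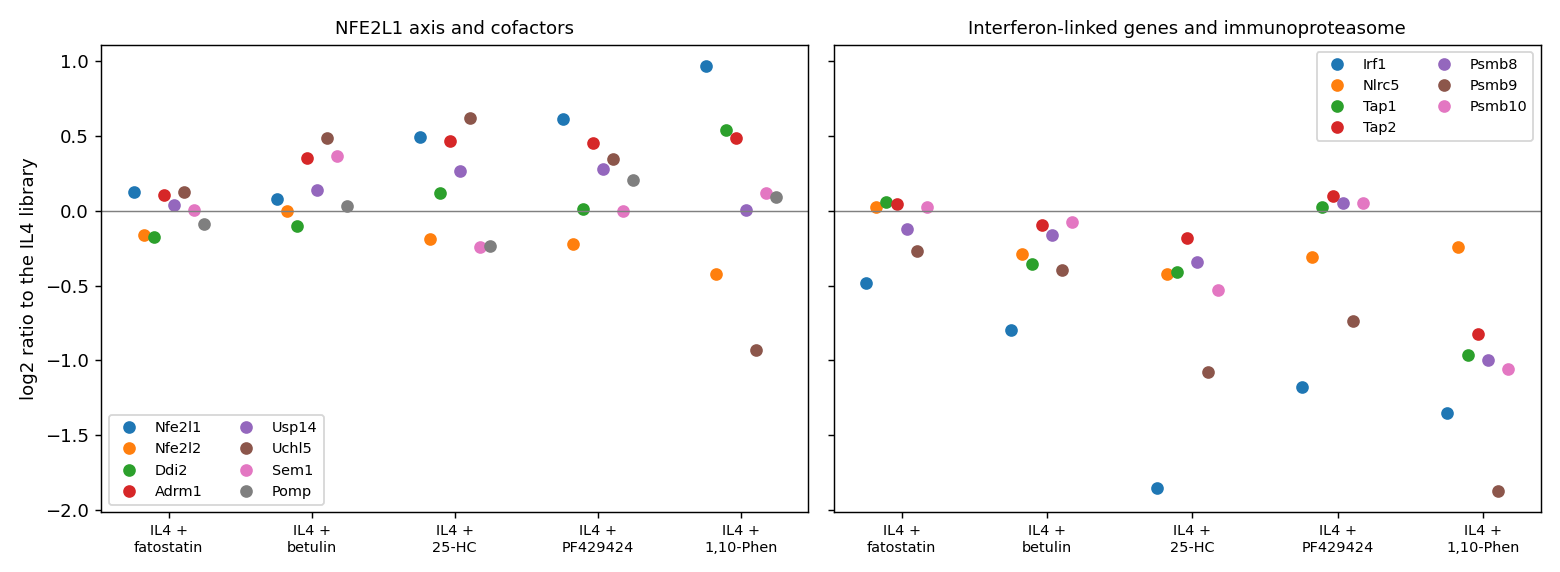
Log2 ratio to the IL4 library of genes that act with the proteasome (left) and of interferon-linked genes with the 3 immunoproteasome genes (right), 1 point per gene and compound library. Nfe2l1 is at 0.97 and Uchl5 at -0.93 with 1,10-Phen, and Irf1 and Psmb9 are the lowest genes of the right panel with 25-HC.

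Further steps of the pathway showed the following. The ubiquitin gene Ubb had 954 CPM with IL4 and 1521 with 1,10-Phen, at a log2 ratio of 0.67. Of 12 genes for the unfoldase Vcp and its cofactors 11 lay above 0 with betulin, 25-HC, PF429424 and 1,10-Phen, with medians of 0.12, 0.24, 0.21 and 0.32. This list was not repeated with library totals either, and Vcp itself was at 0.02 with 1,10-Phen. Of 8 shuttle receptors, which carry substrates to the cap, 2 were called higher with 25-HC and with PF429424 and 3 with 1,10-Phen, against 11.7%, 9.99% and 18.1% of all genes. Rad23b, called in all 3, had 169 CPM with IL4 and 320 with 1,10-Phen. A list of 10 peptidases, only some of which trim peptides that the proteasome releases, had a median of -0.38 with 1,10-Phen. Of these 10 genes 5 were called lower and 1 higher, against 22.8% and 18.1% of all genes. At 2-fold these were Thop1 (-1.26) and Rnpep (-1.16) on the low side and Npepps (1.02) on the high side. In the other 4 comparisons their medians lay between -0.10 and 0.03.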

How the data were processed

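The submitters sequenced total RNA of the 6 libraries. The deposited files hold an expected count per gene, unscaled, per the file headers, and 30.5% to 32.0% of these values in a library are not whole. They also hold FPKM, in which the authors divided by transcript length and depth, per the file headers. Tools listed in the submitters' notes are RSEM 1.2.12, DESeq2, HISAT2 and Bowtie2, with no roles. Whether counting used strand is not given in the sources, so reads of overlapping genes cannot be told apart. Of the 50 genes, 9 have counts that are not whole in some library, which marks reads shared with similar sequences.

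Counts were rounded and scaled with TMM factors over all genes with counts (edgeR 4.0.16, R 4.3.3). Log2 ratios to the IL4 library used a prior count of 2, and the genes kept reached 1 CPM in 1 library or more. Each ratio has an exact Clopper-Pearson 95% interval (SciPy 1.17.1), and each median an order-statistic interval over genes, which for small groups is their range. The floor of 3 counts equals 0.137 to 0.161 CPM. With 1 library per treatment no test was run, and the spread between cultures is unknown. Alternatives were DESeq2 1.42.0 size factors, library totals, other filters and prior counts, log2(FPKM + 1) and another reference. The procedure was tested on simulated data. Named genes were the catalytic and immunoproteasome genes, activators, inhibitor, core chaperones, Psmd14, the 4 highest and 4 lowest ratios per comparison among genes with at least 50 counts, the extremes of FPKM, and fixed genes of the lists. Some of these genes are not reported here. Genes named beyond these were chosen after their values were seen. The members and lists were chosen with earlier results of these data known. Gene positions and promoter sequences are from RefSeq (GRCm38.p6). Promoters were matched by gene identifier, and 42 of the 50 genes had an entry of 250 bases upstream. These genes had 45 windows, and a gene was counted when any of its windows held the motif. The share over all promoters was counted per entry.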

Additional observations from a re-analysis of the deposited data

How the results depend on the processing

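Over 255 recomputed medians and counts, 231 stayed within their interval or within 1.5 times and 24 moved. Of the medians whose interval over genes excluded 0, 0 changed sign. A median whose interval included 0 could change sign without counting as moved. Core and cap with 1,10-Phen did so with library totals, from 0.17 and 0.20 to -0.07 and -0.04. DESeq2 size factors, CPM filters and prior counts moved none of these medians and counts. The CPM filters kept the same core, cap and immunoproteasome genes, so the medians could not move with them. Other prior counts could change the medians of such well-counted genes only slightly. The omission of the genes that match by name only was applied to 10 counts and to no median, and it moved none. TMM on filtered genes and scaling without the 1,10-Phen library, both chosen after seeing the data, moved none either. With library totals the cap median was 0.15 with betulin and 0.11 with PF429424, 1 gene was called lower with fatostatin, and 1 each was called higher with PF429424 and 1,10-Phen. With log2(FPKM + 1) the cap median was 0.15 with betulin and 0.11 with PF429424, and 1 gene each was called higher with PF429424 and 1,10-Phen. Calls on FPKM used size alone, without a counting interval. Library totals set the median of all genes at -0.25 with 1,10-Phen and -0.11 with PF429424. The split of all genes called higher and lower was then 1344 and 3964 with 1,10-Phen, against 2153 and 2716, and 709 and 2153 with PF429424, against 1189 and 1576. The medians of core and cap with 1,10-Phen were negative under both settings (-0.07 and -0.04 with library totals, -0.06 and -0.04 with FPKM).

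The median of the 6 libraries was also used in place of the IL4 library, a reference that contains the compound libraries themselves. With it 15 of 25 medians and counts moved, the most of any alternative. Genes were called against it by size alone, without a counting interval. Fatostatin then gave -0.14 for the core, -0.13 for the cap and 0.0604 for the immunoproteasome genes. Betulin gave 0.0932, 0.0388 and -0.0194 with 1 gene called higher. With 25-HC the cap was at 0.0808, with 1 gene called lower and 0 called higher. With PF429424 the cap was at 0.0323 and the immunoproteasome at 0.0891, with 0 called lower and 0 called higher. With 1,10-Phen 2 genes were called higher. No paired analysis was possible because each treatment has 1 library. The planned count per kilobase was not run, since the tables used here hold no transcript length. Depth limits the low genes: Psma8, Psmb11 and Psmc3ip had at most 78 counts in any library.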
